A study of Mus musculus with 48 samples.

Results

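The members are 10 genes that encode isoforms of subunits of the vacuolar proton pump (V-ATPase), taken by symbol and given here whatever their values, out of 18194 genes named on both chips. The 5 kidney isoforms are Atp6v1b1, Atp6v1c2, Atp6v1g3, Atp6v0a4 and Atp6v0d2, and each has a ubiquitous paralog for the same subunit: Atp6v1b2, Atp6v1c1, Atp6v1g1, Atp6v0a1 and Atp6v0d1. Probe sets named for 9 of the 10 genes were present. Atp6v1g3 had no named probe set and was not analysed here. The other 9 genes had 20 distinct probe sets, of which 16 passed the filter on low signal, which asked that the signal exceed the median of the array on 3 or more of 24 arrays. Every one of the 9 genes kept at least 1 probe set, and the brightest one, from the 430A chip where there was one, stood for the gene.

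The V-ATPase uses ATP to move protons across membranes. Its cytosolic V1 part splits ATP and its membrane V0 part carries the protons. In every cell the pump acidifies lysosomes and endosomes, and in the acid-secreting and base-secreting intercalated cells of the collecting duct it also sits densely in the plasma membrane, where it takes up the B1, C2, G3, a4 and d2 isoforms. Loss of the B1 or the a4 isoform causes distal renal tubular acidosis, an inability of the collecting duct to acidify the urine.

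The forkhead factor Foxi1 is known as a regulator of pump subunit genes in intercalated cells. The RefSeq promoter table (GRCm38.p6) held a window for 6 of the 10 members, and the windows of the only pair of kidney isoforms called together for sex are shown, 250 bases ending just before the start that this table gives and read along the gene. For Atp6v1c2 and Atp6v0a1 that start lies inside the span of the gene in RefSeq's gene table, so their windows are not those of the outermost start. Capitals mark a match to forkhead letters, which were searched on both strands as TGTTTAC and as the same 7 letters with AT, GC or GT at the end.
Atp6v1b1, chr6:83742767-83743016, plus strand: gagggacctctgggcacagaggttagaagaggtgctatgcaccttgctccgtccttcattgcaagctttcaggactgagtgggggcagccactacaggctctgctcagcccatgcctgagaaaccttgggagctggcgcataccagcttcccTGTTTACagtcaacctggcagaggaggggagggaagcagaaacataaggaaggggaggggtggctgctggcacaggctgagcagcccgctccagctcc
Atp6v1c2, chr12:17324731-17324980, minus strand: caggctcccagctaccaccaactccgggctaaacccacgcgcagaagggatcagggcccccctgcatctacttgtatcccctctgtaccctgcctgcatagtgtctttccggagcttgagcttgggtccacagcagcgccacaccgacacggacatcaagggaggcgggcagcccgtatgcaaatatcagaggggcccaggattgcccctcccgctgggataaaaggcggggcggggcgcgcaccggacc
The Atp6v1b1 window held TGTTTAC on the gene's own strand, 98 to 92 bases before the start, and the Atp6v1c2 window held none of these 4 motifs. Of all 32851 windows of this length, 3.17% held TGTTTAC and 15.7% held at least 1 of the 4. Among the other 4 members with a window, Atp6v1g3 held TGTTTGT on the opposite strand, 67 to 61 bases before the start, and Atp6v0a4, Atp6v0d1 and Atp6v0a1 held none. A match is a description of these letters and does not show binding.

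Whole-kidney RNA of 72 mice was combined into 24 pools of 3 mice and each pool was hybridised to the Affymetrix 430A and 430B chips, 48 arrays in all. The 8 groups of 3 pools crossed genotype, diet and sex: normal males, normal females, Hyp males and Hyp females, each on a control diet or on a low phosphorus diet given for 3 days to mice 10 weeks old. The Hyp mutation disables Phex on the X chromosome and causes renal phosphate wasting. Per the labels, the Hyp males were Hyp/Y, the Hyp females were Hyp/+ and so still carried a normal copy, and the controls were normal littermates. A single label gives the strain, C57BL/6J. The values are linear signal per probe set. All differences below are log2 differences of 12 pools against 12, Hyp minus normal, low phosphate minus control, or male minus female, ± the standard error of limma's fit, and a gene is called where limma's p-value, adjusted over all 18642 features tested, is under 0.05. A pool averages 3 mice, so the p-values refer to the spread between pools.

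The median signal per array was 164.6 to 211.1 for the 430A arrays and 50.8 to 68.3 for the 430B arrays. The male 430A arrays had a middle value of 179.3 and the female ones of 195.4. The sex labels were borne out by the Y-linked gene Eif2s3y, which read 211 to 332.8 in the males and 0.8 to 6.9 in the females. Both Phex probe sets stayed at or under a signal of 49.8 in every pool, so they check nothing about the Hyp label. All 10 proximal tubule markers, 13 of 15 intercalated cell markers and 8 of 9 principal cell markers were measured in these kidneys. In whole-kidney RNA, fewer cells of a type and less RNA per cell cannot be told apart.

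All measured kidney isoforms were clearly detected except Atp6v1c2, which was dim. Atp6v1b1, the B1 subunit of the catalytic V1 part, ranged over the 24 pools from 701.7 to 1363.2, with a median of 1020. Atp6v0d2, which links V1 to V0 at the stalk, ranged from 503 to 1031.7 on its representative probe set (1434798_at, median 722.1) and from 542.3 to 906.3 on its other probe set (1444176_at, median 713.8). Atp6v0a4, the proton-channel subunit a4, ranged from 467.5 to 1204.4, the widest relative range of the 4. Atp6v1c2, the C2 subunit of the stalk, ranged from 146.8 to 286.7 and exceeded the array's median on 14 of 24 arrays. The ubiquitous representatives ranged from 2313.7 to 3610 for Atp6v1b2, from 1748.5 to 2931.8 for Atp6v1g1, from 1676.3 to 2605.9 for Atp6v0d1, from 1384.2 to 1941.4 for Atp6v1c1 and from 139.1 to 400.3 for Atp6v0a1. Probe sets differ in brightness, so these ranges give no order of the isoforms.

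**Figure D1:**
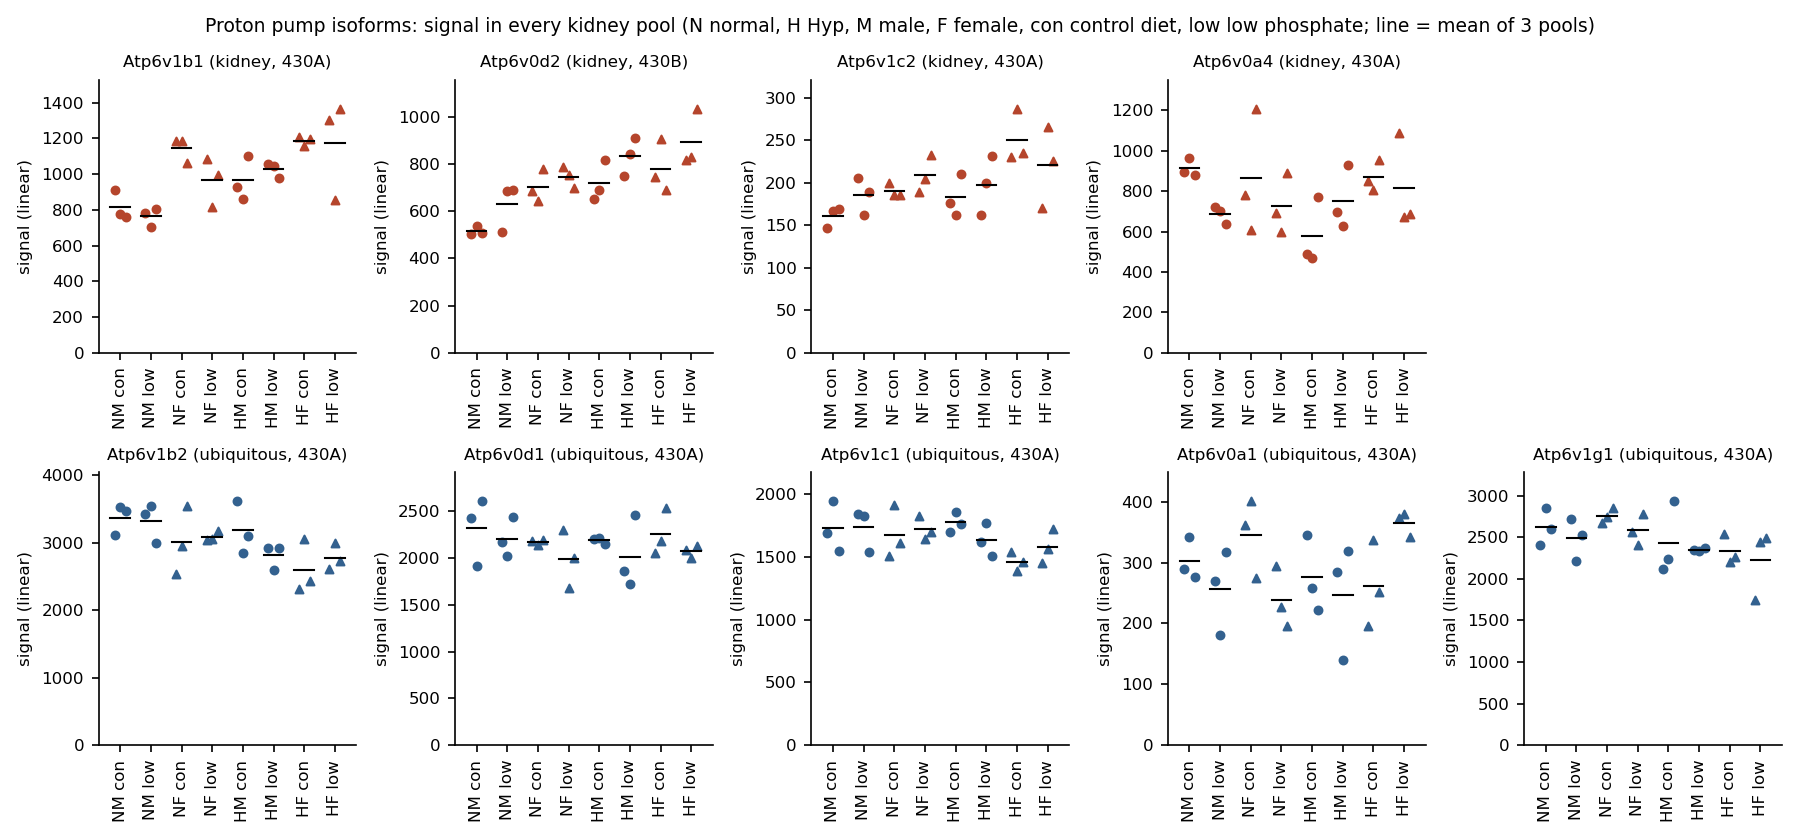
Linear signal of each measured isoform (vertical axis, starting at 0) in all 24 pools, by group (horizontal axis), with circles for male pools, triangles for female pools and a line at the mean of the 3 pools. Atp6v1b1 sat higher in female than in male pools and Atp6v0d2 was lowest in normal males on the control diet (503 to 537.4), whereas no ubiquitous isoform shown here was called for any factor.

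The clearest difference was between the sexes. Atp6v1b1 and Atp6v1c2 were lower in male than in female kidneys, by 1.25-fold and 1.19-fold. All 4 measured kidney isoforms had negative male minus female differences, as had 11105 of all 18642 features. None of the 5 ubiquitous representatives was called in limma's fit. In that fit 1 of them had an unadjusted p under 0.05, as had 5119 of all features. Sex was also the factor with the most calls in the whole table: 15.8% of all features passed, so 2 of 4 kidney isoforms is read against that background.

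Atp6v1b1 was measured at 913.9, 777.6 and 760.1 in the normal males on the control diet and at 1182.9, 1185.5 and 1064 in the females of the same genotype and diet. On low phosphate the normal males had 784.8, 701.7 and 804.6 and the normal females 1082.5, 817.1 and 994.6. In neither of these strata did the sexes overlap, although the closest pair, 804.6 and 817.1, nearly touched. Hyp males on the control diet had 928.8, 862 and 1103.5, against 1205.9, 1156.7 and 1194.5 in Hyp females. On low phosphate the Hyp males had 1058.6, 1046 and 980.3 and the Hyp females 1303.3, 855.5 and 1363.2. This last stratum was the only one of the 4 in which the sexes overlapped, through the female pool of replicate 2 at 855.5. Over all pools the mean was 893.5 ± 132.3 (SD, n = 12) in males and 1117 ± 164.4 in females, and 7 female pools lay above every male pool. The log2 difference was -0.32 ± 0.07 (limma adjusted p = 0.00434), lower in males in 4 of 4 strata, and it was called whichever of the 24 pools was left out. Scaling every array to a common median took it to -0.22 and ended the call (adjusted p = 0.0674).

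Atp6v1c2 had a lowest, median and highest signal of 146.8, 172.9 and 231.4 in male pools and of 170.6, 215.2 and 286.7 in female pools. The groups overlapped, with 4 female pools above every male pool and 6 male pools below every female pool. They were apart in 2 of 4 strata. The difference was -0.26 ± 0.08 (adjusted p = 0.0322), in the same direction in 4 of 4 strata. The call was lost without any one of 9 of the 24 pools (adjusted p up to 0.0644). On the control diet these were normal male replicate 1, normal female replicate 1, Hyp male replicate 2 and Hyp female replicate 2. On low phosphate they were normal male replicate 2, normal female replicate 3, Hyp male replicate 1 and Hyp female replicates 2 and 3. It was also lost under a common array median (-0.16, adjusted p = 0.279) and under quantile normalization (-0.16, adjusted p = 0.261).

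Atp6v0d2 was lower in males on both of its probe sets. On 1434798_at the male pools had a lowest, median and highest signal of 503, 686.8 and 909.3 and the female pools of 644, 766.6 and 1031.7, a difference of -0.23 ± 0.08 that missed the threshold (adjusted p = 0.0693). On 1444176_at the male pools ran from 542.3 over a median of 660.2 to 776.8 and the female pools from 687.2 over 743.7 to 906.3, and the sexes were apart in 3 of 4 strata. In the fit that gives every kept probe set a row of its own, where 14.6% of 27944 probe sets were called for sex, that probe set was called (-0.25 ± 0.06, adjusted p = 0.00941). Atp6v0a4 had a difference of -0.16 ± 0.12 (adjusted p = 0.409), with male pools at 467.5 to 965 and female pools at 597 to 1204.4, and the spread among its pools was wider than the difference.

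Among the ubiquitous isoforms, Atp6v1b2, the B2 paralog of Atp6v1b1, leaned the other way. Its representative probe set gave a median of 3103 in male pools and 2976 in female pools, a difference of 0.15 ± 0.07 (adjusted p = 0.142), which became a call under a common array median (0.24, adjusted p = 0.0178). Its second kept probe set, 1419883_s_at, was called higher in males at probe set level (0.28 ± 0.09, adjusted p = 0.0332), with medians of 1343 in males and 1134 in females. On that probe set the sex difference was 0.48 ± 0.12 within Hyp mice (adjusted p = 0.0182, 6.17% of probe sets called) and 0.07 ± 0.12 within normal mice (adjusted p = 0.801, 8.02% called), while the difference between these, the genotype by sex interaction, was not called in limma's fit (adjusted p = 0.782). Atp6v1c1, the C1 subunit, had 0.10 ± 0.06 (adjusted p = 0.302) and was likewise called only under a common array median (0.19, adjusted p = 0.0406). Its 3 kept probe sets did not share a direction: 0.10, 0.08 and, on 1419545_a_at, -0.19 (adjusted p = 0.0535). Atp6v0d1 (0.04), Atp6v1g1 (0.0024) and Atp6v0a1 (-0.16, adjusted p = 0.496) were not called. At probe set level 1423256_a_at of Atp6v1g1 gave 0.19 ± 0.08 (adjusted p = 0.143). The further probe sets of Atp6v0a1 gave 0.22 ± 0.11 on 1417632_at and -0.19 ± 0.10 on 1425227_a_at, neither called. Within normal mice the last, above the array's median on 5 of 24 arrays, was called lower in males (-0.51 ± 0.14, adjusted p = 0.0242, 8.02% called). Within Hyp mice it gave 0.12 ± 0.14 (adjusted p = 0.721). The median difference was -0.24 over the 4 kidney isoforms and 0.04 over the 5 ubiquitous ones, beside -0.05 over all features. Under a common array median these 3 values became -0.17, 0.13 and 0.02, and under quantile normalization the ubiquitous median turned to -0.0081. All 4 kidney isoforms stayed negative under both.

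**Figure D2:**
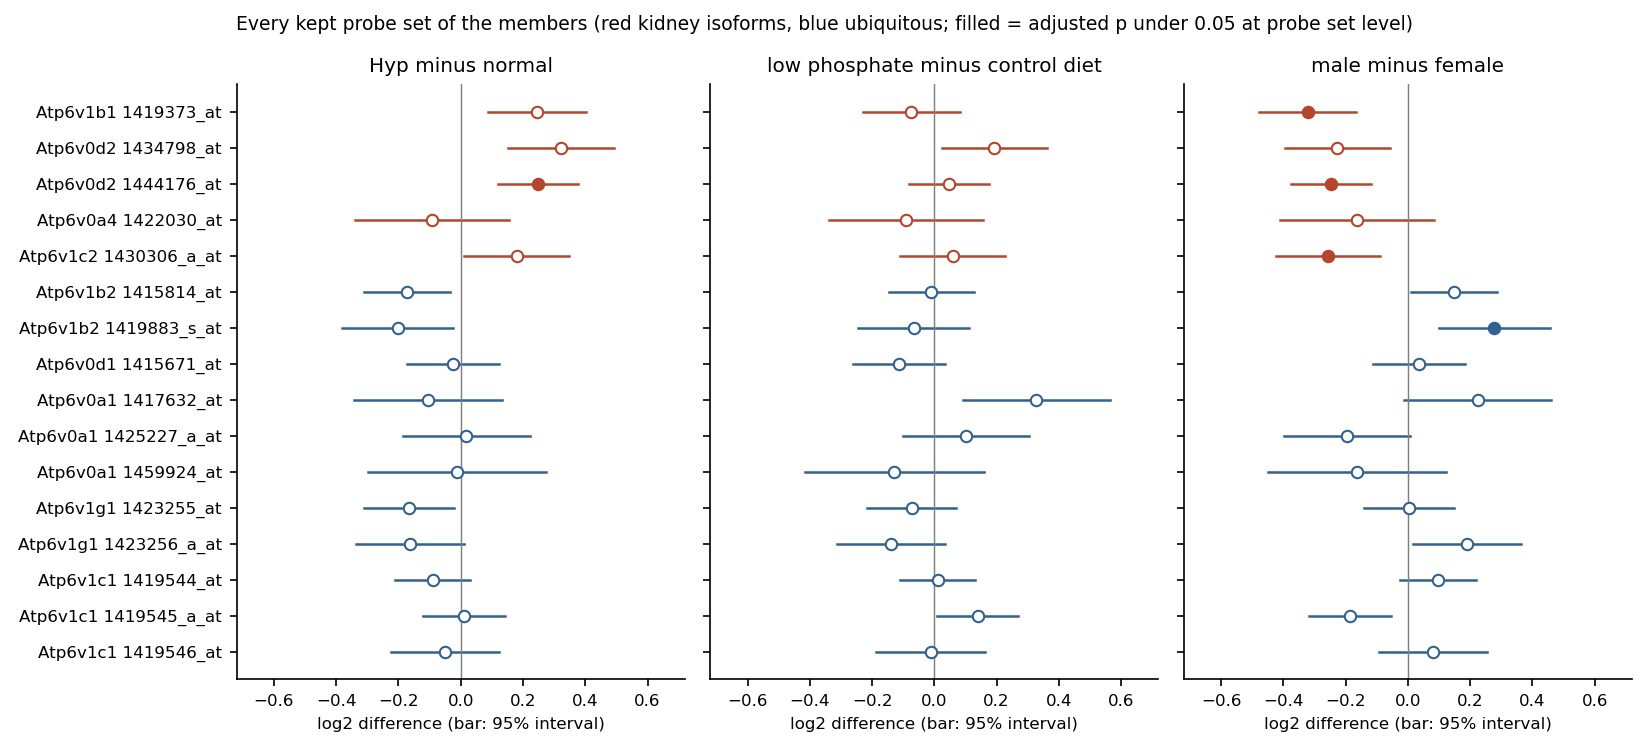
Log2 difference with its 95% interval (horizontal axis) for each of the 16 kept probe sets (rows) for genotype, diet and sex, with kidney isoforms in red, ubiquitous isoforms in blue and filled points for adjusted p under 0.05 at probe set level. The filled points are 1 probe set of Atp6v0d2 for genotype, none for diet, and for sex those of Atp6v1b1, Atp6v0d2 (1444176_at) and Atp6v1c2 on the lower side in males and of Atp6v1b2 (1419883_s_at) on the higher side.

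Comparing genotypes, Atp6v0d2 was 1.25-fold higher in Hyp than in normal kidneys and was the only member called. Atp6v1b1 and Atp6v1c2 had positive differences that did not pass, Atp6v0a4 had a small negative one, and all 5 ubiquitous representatives had negative ones, none called, with 2 at an unadjusted p under 0.05. Of all 18642 features, 1.95% were called for genotype, 1994 had an unadjusted p under 0.05 in limma's fit and 9492 had a negative difference.

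In males on the control diet, Atp6v0d2 (1434798_at) was measured at 503, 537.4 and 507.7 in normal and at 651.9, 687.8 and 816.7 in Hyp pools. On low phosphate the normal males had 513, 685.8 and 689.2 and the Hyp males 750.4, 844 and 909.3. In both male strata every Hyp pool lay above every normal pool. In females on the control diet the normal pools had 685.4, 644 and 779.7 and the Hyp pools 746.5, 904.3 and 691.6, and these overlapped. On low phosphate the normal females had 785.3, 753.4 and 697.7, all below the Hyp females at 817.2, 830.7 and 1031.7. The genotype means were 806.8 ± 109.1 (SD, n = 12) in Hyp and 648.5 ± 106.8 in normal pools, and 7 Hyp pools lay above every normal pool. The log2 difference was 0.32 ± 0.08 (limma adjusted p = 0.0498), positive in 4 of 4 strata. This value sits at the threshold. Leaving out any one of 23 of the 24 pools ended the call for the gene (adjusted p from 0.0505 to 0.0939). It held only without replicate 3 of the Hyp females on the control diet (0.0441). Each refit picked the brightest probe set anew. Without Hyp male replicate 3 of either diet, or normal male replicate 3 of low phosphate, this was 1444176_at (0.24 to 0.25, adjusted p from 0.0779 to 0.0857). The call was also lost under both other scalings (0.29, adjusted p = 0.197, and 0.31, adjusted p = 0.0562). The further probe set 1444176_at had a lowest, median and highest signal of 656.8, 758.4 and 906.3 in Hyp pools and of 542.3, 675.4 and 762.7 in normal pools. It gave 0.25 ± 0.06 and was called at probe set level (adjusted p = 0.0468), where 1.62% of probe sets were called and the representative just missed (adjusted p = 0.0508).

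Atp6v1b1 had a lowest, median and highest signal of 855.5, 1081 and 1363.2 in Hyp pools and of 701.7, 865.5 and 1185.5 in normal pools. Hyp was higher in 4 of 4 strata, but the groups were apart in only 1 of them. The difference was 0.25 ± 0.07 (adjusted p = 0.112), and it passed only without replicate 2 of the Hyp females on low phosphate, the pool at 855.5 (0.30, adjusted p = 0.0107). Atp6v1c2 ran from 161.7 over a median of 218.4 to 286.7 in Hyp and from 146.8 over 187.6 to 233.3 in normal pools (0.18 ± 0.08, adjusted p = 0.406). Atp6v0a4 had -0.09 ± 0.12 (adjusted p = 0.876), and its strata ran from -0.70 to 0.15, so its pools gave no common direction. The lowest 2 of its signals, 467.5 and 491, were both Hyp males on the control diet, whose 3 pools all lay below the normal males on that diet (878.1 to 965).

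None of the 5 ubiquitous representatives was called for genotype. Atp6v1b2 had a median of 2880 in Hyp and 3138 in normal pools (-0.17 ± 0.07, adjusted p = 0.273), and Atp6v1g1, the G1 subunit of the stator stalk, had 2344 and 2637 (-0.17 ± 0.07, adjusted p = 0.343). Both were lower in Hyp in 4 of 4 strata. Atp6v1c1 had -0.09 ± 0.06, Atp6v0d1 had -0.02 ± 0.07 and Atp6v0a1 had -0.01 ± 0.14. Further kept probe sets gave 0.0095 and -0.05 for Atp6v1c1 and -0.11 and 0.02 for Atp6v0a1. They gave -0.20 for Atp6v1b2 and -0.16 for Atp6v1g1, and the 430B copy of Atp6v0d1 gave 0.01. The negative sign shared by all 5 genes thus holds for the representatives only. The median difference was 0.21 over the 4 kidney isoforms and -0.09 over the 5 ubiquitous ones, beside -0.0034 over all features. Under either other scaling 1 of the 5 ubiquitous differences turned positive.

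No measured member passed the test for the low phosphate diet. Of all 18642 features, 0.772% were called for diet and 1772 had an unadjusted p under 0.05 in limma's fit. In limma's fit 0 of 4 kidney and 0 of 5 ubiquitous isoforms passed, with 1 kidney isoform and no ubiquitous one at an unadjusted p under 0.05. That isoform was Atp6v0d2, with pools from 513 over a median of 769.3 to 1031.7 on low phosphate and from 503 over 686.6 to 904.3 on the control diet. It was higher on low phosphate in 4 of 4 strata (0.19 ± 0.08, interval 0.02 to 0.37, adjusted p = 0.451), but its second probe set gave 0.05 ± 0.06, with 2 of 4 strata positive. Atp6v1b1 had -0.07 ± 0.07 (interval -0.23 to 0.08), Atp6v1c2 0.06 ± 0.08 and Atp6v0a4 -0.09 ± 0.12. At probe set level, where 0.666% were called for diet, no probe set of a member passed. The 3 kept probe sets of Atp6v0a1, the a1 subunit, gave -0.13, 0.33 and 0.10 for diet, all with adjusted p of 0.304 or more, so no direction of this gene can be read.

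No interaction was called for the representative probe set of any member. The background shares called were 0.0161% for genotype by diet, 0.0805% for genotype by sex, 0% for diet by sex and 0% for all 3 factors together. In limma's fit 0 of 9 representatives passed in each, and none had an unadjusted p under 0.05. Of all 18642 features, 1003, 1195, 1019 and 724 had such a p, in the same order. Further probe sets had lower unadjusted p-values at probe set level. On 1425227_a_at of Atp6v0a1 limma gave 0.63 ± 0.19 for genotype by sex (unadjusted p = 0.00425, adjusted p = 0.576) and 0.52 ± 0.19 for genotype by diet (unadjusted p = 0.0139, adjusted p = 0.803). On 1419883_s_at of Atp6v1b2 it gave 0.41 ± 0.17 for genotype by sex (unadjusted p = 0.0283, adjusted p = 0.782). Whether the sex difference of the kidney isoforms differs between genotypes, or the genotype difference between diets, was therefore not shown either way at this number of pools.

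Setting a kidney isoform against its ubiquitous paralog within the same pool cancels any factor that scales a whole array, where both lie on 1 chip. This holds for the B, C and a pairs, while Atp6v0d2 was read from the 430B and Atp6v0d1 from the 430A chip. The 430B copy of Atp6v0d1 was not used for a ratio. It gave 0.01 for genotype, -0.05 for diet and 0.09 for sex, against -0.02, -0.11 and 0.04 on the 430A chip. Set against that copy, the Atp6v0d2 ratio would differ less for genotype and diet and more for sex. The log2 ratio is a difference of 2 probe sets of unlike brightness, so its changes between groups are read here and not its level. These ratios were added as rows to the same fit. For Atp6v1b1 over Atp6v1b2 the ratio was lower in male pools by a log2 difference of -0.47 ± 0.11 (interval -0.69 to -0.25, limma adjusted p = 0.00365), negative in 4 of 4 strata. A two-sided exact permutation test of the sex labels within the strata gave p = 0.000912 (unadjusted). The ratio was called whichever pool was left out and under both other scalings. It was also higher in Hyp pools, by 0.42 ± 0.11 (interval 0.20 to 0.64, adjusted p = 0.0445, exact permutation p = 0.00194), positive in 4 of 4 strata, but without any one of 17 of the 24 pools the adjusted p rose above the threshold, to at most 0.0913. It held without normal male replicate 1, normal female replicate 1, Hyp male replicate 1 or Hyp female replicate 2 of the control diet, and without normal male replicate 3, normal female replicate 1 or Hyp female replicate 2 of low phosphate.

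The log2 ratio of Atp6v1b1 to Atp6v1b2 was lowest in normal males, at -1.77, -2.18 and -2.19 on the control diet and at -2.13, -2.34 and -1.90 on low phosphate. In Hyp females it lay at -0.94, -1.40 and -1.02 on the control diet and at -0.998, -1.81 and -1.003 on low phosphate. Only the 855.5 pool of the Hyp females, with a ratio of -1.81, reached into the range of the normal males.

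For Atp6v1c2 over Atp6v1c1 the ratio was lower in males by -0.35 ± 0.10 (adjusted p = 0.0139, exact permutation p = 0.00381), negative in 4 of 4 strata and called whichever pool was left out, but not under quantile normalization (-0.23, adjusted p = 0.147). For Atp6v0d2 over Atp6v0d1 it was higher in Hyp pools by 0.35 ± 0.09 (adjusted p = 0.0498, exact permutation p = 0.0024), positive in 4 of 4 strata. The genotype difference of this ratio was 0.55 ± 0.13 within males (adjusted p = 0.035, 1.07% of all features called) and 0.14 ± 0.13 within females (adjusted p = 0.809, 0.692% called). Its genotype by sex interaction was 0.41 ± 0.18 in limma's fit (unadjusted p = 0.0344, adjusted p = 0.764) and was not called. The genotype call over both sexes ended without any one of 20 pools (adjusted p up to 0.259) and under both other scalings. It held without normal male replicate 2 or Hyp female replicate 3 of the control diet, and without normal male replicate 2 or normal female replicate 2 of low phosphate. The sex difference of the same ratio was -0.26 ± 0.09 (adjusted p = 0.0518) and its diet difference 0.31 ± 0.09 (adjusted p = 0.168, exact permutation p = 0.00225), neither called. For Atp6v0a4 over Atp6v0a1 the ratio differed by -0.08 ± 0.19 for genotype, 0.04 ± 0.19 for diet and -6e-04 ± 0.19 for sex. The interval of the last, -0.40 to 0.40, is wide enough to hold the sex difference of the Atp6v1c2 ratio. Atp6v1g3 over Atp6v1g1 could not be formed. Of the 4 ratios, 2 were called for genotype, 0 for diet and 2 for sex, beside 1.95%, 0.772% and 15.8% of all features. For diet 1 of the 4 had an unadjusted p under 0.05 in limma's fit, as had 1772 of all 18642 features.

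**Figure D3:**
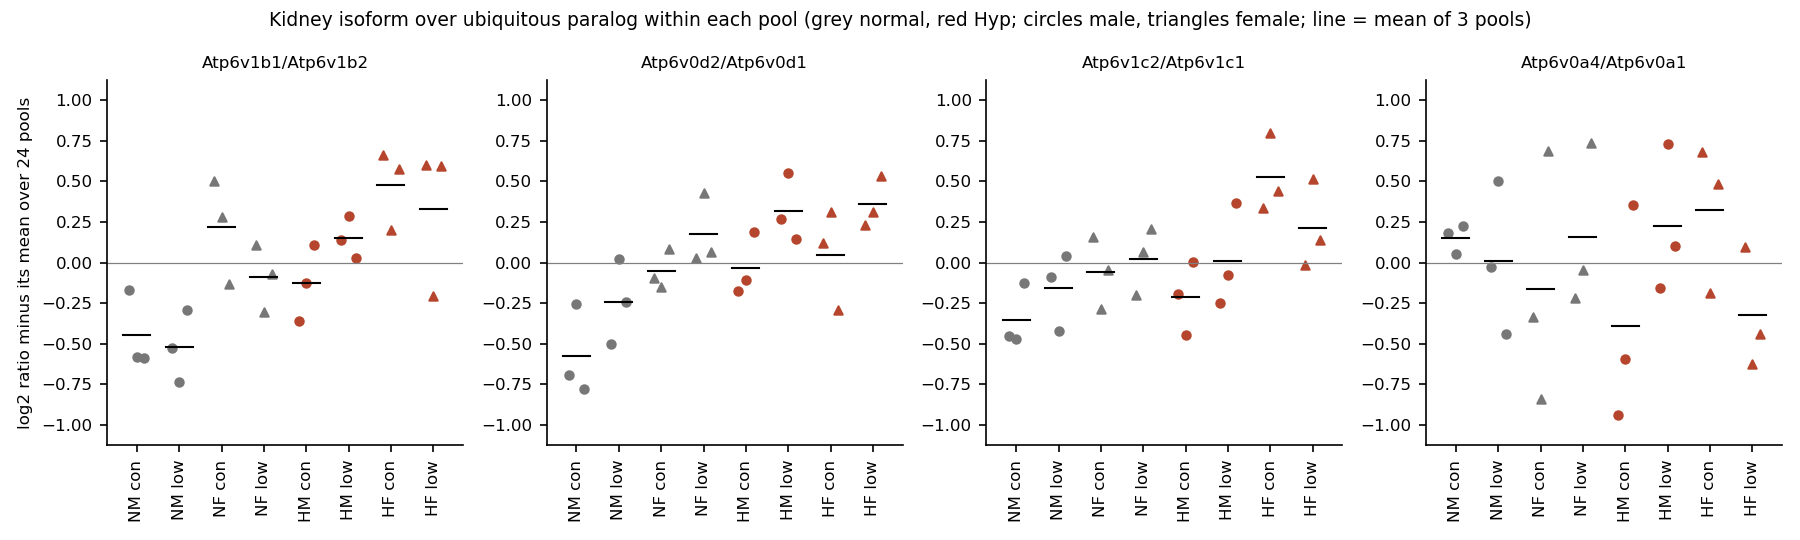
Log2 ratio of each kidney isoform to its ubiquitous paralog in each of the 24 pools, minus its mean over the pools (vertical axis), by group, with grey for normal, red for Hyp, circles for males, triangles for females and a line at the mean of 3 pools. The Atp6v1b1 ratio was lowest in normal males and highest in Hyp females, and the Atp6v0a4 ratio scattered in most groups.

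The other listed subunits of the pump had no called difference on their representative probe sets. Of 15 genes listed, 12 were measured, and 0 passed limma's test for genotype, diet or sex. Of these 12, 3, 0 and 1 had an unadjusted p under 0.05, beside 1994, 1772 and 5119 of all 18642 features. The medians of the 12 were 0.06, -0.0096 and -0.01. Atp6v0b, a proton-carrying subunit of the V0 ring, had 0.20 ± 0.07 for genotype (adjusted p = 0.177) and 0.14 ± 0.07 for sex (adjusted p = 0.193). Its further probe sets gave 0.04 and 0.0085 for genotype. For sex they gave -0.14 (adjusted p = 0.0998 at probe set level) and 0.03. Atp6v0e2 had -0.24 ± 0.10 for genotype (adjusted p = 0.366). Atp6v1h, a regulatory V1 subunit, had -0.13 ± 0.07 for diet (adjusted p = 0.576), and Atp6v1a, the catalytic A subunit, had -0.09 ± 0.05 (adjusted p = 0.67). For sex the representative of Atp6v1h gave 0.05 ± 0.07, but its other probe set was called lower in males at probe set level (-0.58 ± 0.15, adjusted p = 0.0111), so this gene has no settled direction. Under a common array median 1 of the 12 was called for sex, higher in males, and 11 of 12 differences were positive.

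Among 10 genes of pump assembly and regulation, all measured, 2 were called for sex, where 15.8% of all features were. For genotype and for diet 0 were called and 1 had an unadjusted p under 0.05, beside 1994 and 1772 of all 18642 features. Tbc1d24, which binds the pump through its TLDc domain, was lower in males on its representative probe set (-0.41 ± 0.09, adjusted p = 0.00198), and its other probe set gave 0.15 ± 0.32 (adjusted p = 0.831 at probe set level). Vma21, an assembly factor of the V0 part, was higher in males on its representative probe set (0.32 ± 0.06, adjusted p = 7.74e-04), but another of its probe sets was called lower (-0.35 ± 0.07, adjusted p = 0.00195 at probe set level), so it has no settled direction either. Oxr1, another gene with a TLDc domain, gave -0.15 ± 0.09 on its representative and was called lower in males on a further probe set at probe set level (-0.34 ± 0.08, adjusted p = 0.00384). Lysosome genes, of which 12 of 16 were measured, gave 0 calls for genotype (2 at an unadjusted p under 0.05, beside 1994 of 18642 features). For diet 2 rose, against 0.772% of all features called, the sialidase Neu1 (0.29 ± 0.05) and its partner Ctsa (0.28 ± 0.06). For sex 2 were higher in males, Neu1 (0.53 ± 0.05) and Psap (0.23 ± 0.05), the direction opposite to the kidney pump isoforms.

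Some markers of the collecting duct were also lower in males, beside 15.8% of all features called for sex in either direction. Of 13 measured intercalated cell markers, 5 were lower in males and none higher, with a median of -0.22. These were the ammonia channel Rhcg (-0.36 ± 0.05), the carbonic anhydrase Car2 (-0.27 ± 0.06), the chloride-bicarbonate exchanger Slc26a4 (-0.20 ± 0.05), the anion exchanger Slc4a9 (-0.24 ± 0.08) and the ammonia channel Rhbg (-0.24 ± 0.08). Rhbg, added after its value was seen, is counted among these 13 for sex, genotype and diet. The summed signal of the 13 ran from 11083 to 14892 in male and from 14142 to 16502 in female pools, and Car2, which other tubule cells also express, made up much of it. Of 8 measured principal cell markers, 4 were lower in males and none higher, with a median of -0.24: the potassium channel Kcnj1 (-0.32 ± 0.06), the sodium channel subunits Scnn1g (-0.39 ± 0.09) and Scnn1b (-0.28 ± 0.09), and Hsd11b2 (-0.35 ± 0.10), which protects the mineralocorticoid receptor from cortisol-like steroids. Their summed signal ran from 9864 to 13066 in male and from 12101 to 14838 in female pools. Macrophage and leukocyte markers were lower in males for 3 of 9 (Cd14, Cd74 and Lyz2), with a summed signal of 5981 to 7822 in male and 6931 to 8427 in female pools. Of the 10 proximal tubule markers, 3 were higher and 3 lower in males, with a median of 0.03. Under a common array median the calls fell to 1 of 13 intercalated and 1 of 8 principal cell markers, with medians of -0.13 and -0.14. The part of these cell types in the sex difference of the pump isoforms was not tested.

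For genotype, where 1.95% of all features were called, 2 of the 13 intercalated cell markers were higher in Hyp pools, the basolateral anion exchanger Slc4a1 (0.42 ± 0.09) and Slc26a4 (0.27 ± 0.05), and 12 of 13 differences were positive, with a median of 0.27. Slc4a9 (0.31 ± 0.08, adjusted p = 0.0515) and Kit (0.35 ± 0.09, adjusted p = 0.0585) fell just short. The summed signal was 12487 to 16182 in Hyp and 11083 to 16502 in normal pools. Of the principal cell markers, 1 of 8 was higher in Hyp, Kcnj1 (0.24 ± 0.06), with a median of 0.17 and a summed signal of 11581 to 14838 in Hyp and 9864 to 14129 in normal pools. Among the 10 proximal tubule markers, 1 was higher and 4 were lower in Hyp. For diet, where 0.772% of all features were called, 3 intercalated cell markers rose, Slc26a4 (0.66 ± 0.05), Slc4a9 (0.46 ± 0.08) and Rhcg (0.24 ± 0.05), while no pump isoform was called. Slc26a4 and Slc4a9 belong to the base-secreting intercalated cells. The part of these cell types in the genotype difference was not tested either.

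**Figure D4:**
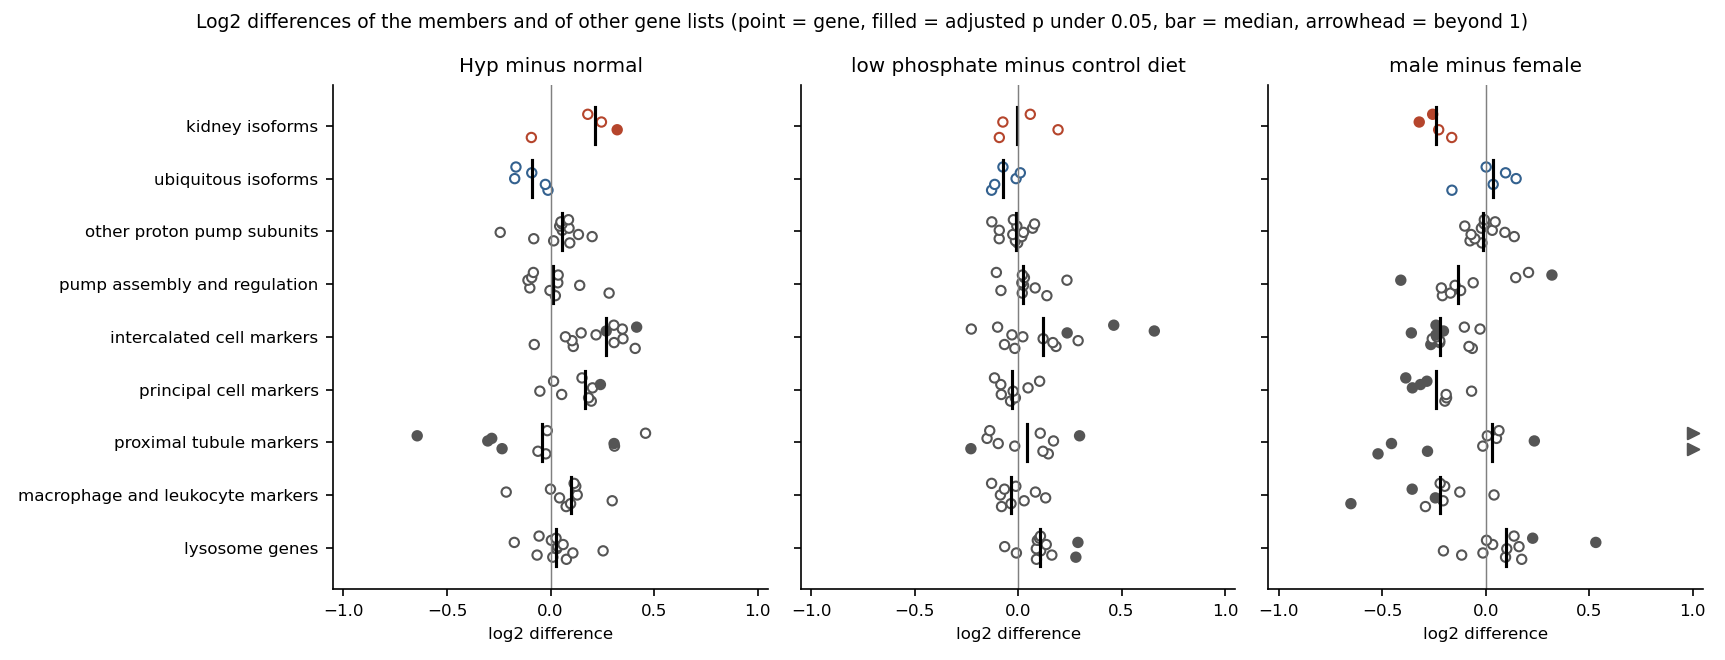
Log2 difference (horizontal axis) of each measured gene in the pump isoform classes and in the other lists (rows) for genotype, diet and sex, with filled points for adjusted p under 0.05, a bar at each list's median and arrowheads for values beyond 1. For genotype, diet and sex the medians were 0.21, -0.0074 and -0.24 for the kidney isoforms, 0.27, 0.12 and -0.22 for intercalated and 0.17, -0.03 and -0.24 for principal cell markers. The macrophage and leukocyte markers had a median of -0.22 for sex, and the medians of the other pump subunits were 0.06, -0.0096 and -0.01.

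Probe sets removed by the filter gave no further values for the members. Atp6v1b2 had such probe sets at signals of 4.2 to 92.2 and 3.4 to 59.2, Atp6v1g1 had 1 at 3.1 to 60.1 and Atp6v0a1 had 1 at 74.1 to 178.8. The probe set of Atp6v0d1 is carried by both chips, which gives a repeat measurement of each pool. The 430B value minus the 430A value had a mean of -0.08 and an SD of 0.11 over 24 pools on the log2 scale, smaller than the SD of 0.17 between pools of 1 group on the 430A chip. On the 430B chip its differences were 0.01 for genotype, -0.05 for diet and 0.09 for sex.

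Over the 8 group means of log2 signal, the genes most like Atp6v1b1 by Pearson correlation were Tacc1 (r = 0.985), Sdcbp (0.985) and Tspan12 (0.979). Within the pump, Atp6v1b1 had r = 0.762 with Atp6v0d2, 0.727 with Atp6v1c2 and 0.258 with Atp6v0a4, and -0.883 with its paralog Atp6v1b2. The genes most like Atp6v0d2 were Slc23a3 (0.98), Gga2 (0.978) and Tor4a (0.968), and those most like Atp6v0a4 were Wscd2 (0.959), Btbd19 (0.939) and 4831407H17Rik (0.927). These values describe 8 group means from shared arrays, chosen as the highest of 12838 named genes, and carry no test.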

How the data were processed

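The authors deposited signal intensity on a linear scale per probe set, 1 table for each of 48 arrays. GCOS 1.2 made them, per the submitters' processing notes. How it computed and scaled expression is not given in the sources used here. Values under 1 were set to 1. Log2 signals entered limma 3.58.1 (lmFit, eBayes; R 4.3.3) with 8 group means and contrasts of equal weight. Each chip had its own fit, and p-values were adjusted by Benjamini-Hochberg over both. All adjusted p-values are limma's. Probe sets took their symbols from the platform annotation, updated against the RefSeq gene table of GRCm38.p6. The 430B copies of the 100 probe sets on both chips were left out of tests. The fit was tested on simulated data. The members and lists were chosen with earlier results of these data known. Named were all members, of each other list up to 4 genes with the smallest adjusted p per factor, and the 3 genes most like Atp6v1b1, Atp6v0d2 and Atp6v0a4. Rhbg was added after its value was seen. Alternatives were other scalings, a pseudocount, filters, adjustment within chips, other probe set choices, a replicate block, an exact permutation test and leaving out each pool. The precision is limited by 3 pools per group.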

Additional observations from a re-analysis of the deposited data

How the results depend on the processing

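Main counts were 1 kidney isoform called for genotype, 2 kidney and 0 ubiquitous isoforms for sex, and 2 paralog ratios each for genotype and sex. Under a common array median these became 0 kidney isoforms for genotype, 0 kidney and 2 ubiquitous isoforms for sex, 1 ratio for genotype and 3 ratios for sex. Under quantile normalization they became 0, 1 kidney isoform for sex, and 1 ratio each for genotype and sex. Without the filter on low signal they became 0, 1 and 0 ratios for genotype, and the diet calls over all features fell from 144 to 94. Over all features 363 were called for genotype in the main fit and 303 under a common array median. Quantile normalization gave 397 and no filter 268. In the same order the calls for sex were 2954, 2667, 2828 and 2567. With p-values adjusted within each chip, or with every kept probe set in the fit, the representative probe sets gave 0 kidney isoforms for genotype, although the further probe set of Atp6v0d2 was called in the latter (adjusted p = 0.0468). Leaving out 1 pool gave 0 to 1 kidney isoforms for genotype, 1 to 3 for sex, and 0 to 1 ratios for genotype, with fewer pools in each fit. Over all features these fits called 304 to 370 for genotype and 2599 to 3028 for sex. What caused these changes, those on leaving out a pool included, was not tested. Beyond these counts, and leaving out pools apart, 314 values for single genes and ratios kept their side of the threshold, 6 of them with a turned sign and none of those 6 called, 11 newly passed and 14 no longer passed. This tally takes in the exact permutation tests of the ratios, whose unadjusted p was set against the same 0.05. Through them the Atp6v0d2 ratio for diet and sex and the Atp6v1c2 ratio for genotype count as newly passed.

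The labels do not say what the replicate numbers mark, and the main fit had no block for them. Deviations from the group means correlated at -0.052 to 0.0871 (mean 0.03) between pools with the same number. Between pools with unlike numbers the mean was -0.015. Of 24 pools, 17 correlated best with a pool of their own number, so some shared part by number is present, though small. With the replicate block, no call of a member changed, the Atp6v0d2 ratio for sex passed (-0.26, adjusted p = 0.0303), and calls over all features went from 363 to 438 for genotype, from 144 to 185 for diet and from 2954 to 3250 for sex. That ratio also passed under a common array median (0.0166), a pseudocount of 50 (0.0492), the filter on 12 arrays (0.04), adjustment within each chip (0.0316) and the unadjusted exact permutation test (0.0156). Among these settings the Atp6v0d2 ratio for diet (p = 0.00225) and the Atp6v1c2 ratio for genotype (0.0144) passed only in the exact permutation test. Atp6v1c2 exceeded the array's median on 14 of 24 arrays.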
